A study of Mus musculus with 15 samples.

Results

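CpG-dense stretches that lie deep inside protein-coding genes, away from both gene ends, were described in the dentate gyrus of 15 female C57BL/6JRj mice aged 7.5 months. A stretch was a 1 kb window on an autosome with at least 10 measured CpG positions (each strand of a CpG counted on its own, called a CpG row here). It had to lie wholly inside a protein-coding gene of the GRCm38 RefSeq annotation and more than 5 kb from either end of every protein-coding gene. The rule found 975 windows, of 117247 windows that held any CpG row, in 753 genes and with 14158 CpG rows. It used position and the number of rows, not the methylation values. The dentate gyrus is the part of the hippocampus where new neurons are added in adult mice, and it was micro-dissected for reduced representation bisulfite sequencing (RRBS). RRBS cuts genomic DNA at CCGG, sequences the short CpG-rich fragments and reads methylation at single cytosines. Of the mice, 5 lived in standard cages for 6 months, 5 in an enriched environment for 6 months, and 5 in enrichment for 3 months and then in standard cages for 3 months, called the withdrawal group below. All groups shared strain, sex, age and tissue, and no transgene or drug was named.

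Most CpGs of the mouse genome are methylated. The exceptions are CpG islands, CpG-rich stretches that usually mark gene starts and stay free of methylation whether or not the gene is active in that tissue. An island inside a gene, often called an orphan island, can be the start of a shorter transcript of the same gene or of a noncoding RNA, an enhancer, or a stretch of coding sequence with no such role. At imprinted genes, islands of this kind carry methylation on the copy from 1 parent only.

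The sequences of several annotated starts inside the windows are shown first, since windows with and without such a start are described separately below. They come from RefSeq on GRCm38.p6. For starts of protein-coding transcripts the bases before the start are given, and for starts of noncoding genes the bases around it. Capitals mark the CpGs that had a measured row. Dab1, which encodes an adaptor in reelin signalling that guides neuron placement, has an internal start at chr4:104367288-104367537, plus strand, 747.5 kb into the gene. Celf5, an RNA-binding splicing regulator, has one at chr10:81473384-81473633, minus strand. It is shown because its window had the smallest limma p among all members. Bdnf, the neurotrophin of activity-dependent plasticity, has one at chr2:109694159-109694408, plus strand, and Pax6, a transcription factor of neural stem cells, has one at chr2:105682213-105682462, plus strand.
Dab1 internal start: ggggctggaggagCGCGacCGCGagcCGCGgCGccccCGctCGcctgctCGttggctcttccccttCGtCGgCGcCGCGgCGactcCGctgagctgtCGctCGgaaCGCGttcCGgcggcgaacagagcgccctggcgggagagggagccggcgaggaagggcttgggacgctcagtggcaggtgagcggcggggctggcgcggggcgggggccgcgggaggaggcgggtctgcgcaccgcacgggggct
Celf5 internal start: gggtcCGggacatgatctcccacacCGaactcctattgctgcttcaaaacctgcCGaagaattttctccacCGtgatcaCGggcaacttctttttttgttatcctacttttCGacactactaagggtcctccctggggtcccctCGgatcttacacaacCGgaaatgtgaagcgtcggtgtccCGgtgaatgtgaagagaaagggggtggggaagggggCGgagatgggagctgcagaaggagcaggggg
Bdnf internal start: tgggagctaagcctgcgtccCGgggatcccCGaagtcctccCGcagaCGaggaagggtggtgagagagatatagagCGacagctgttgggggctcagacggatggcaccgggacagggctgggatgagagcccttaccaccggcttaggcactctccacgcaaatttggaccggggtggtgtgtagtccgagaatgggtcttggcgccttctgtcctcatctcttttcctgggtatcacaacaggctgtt
Pax6 internal start: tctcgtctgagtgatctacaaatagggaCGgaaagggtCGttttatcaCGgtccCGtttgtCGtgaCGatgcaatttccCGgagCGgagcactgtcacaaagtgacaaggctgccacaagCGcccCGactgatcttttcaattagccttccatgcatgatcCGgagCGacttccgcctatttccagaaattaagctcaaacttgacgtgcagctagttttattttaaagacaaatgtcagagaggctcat

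In these 4 stretches the measured CpGs averaged 1.06% methylation at Dab1 (23 rows, 0% to 4.41%), 2.62% at Celf5 (10 rows, 0% to 8.48%), 2.89% at Bdnf (5 rows, 0% to 9.11%) and 7.66% at Pax6 (15 rows, 0.714% to 20.4%). The Dab1 stretch was the most CpG-rich of them, with 40 CpGs in 250 bases. The Bdnf stretch had 13, of which 5 were measured.

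A further set shows starts of noncoding genes, since low and high levels both occurred there. Dixdc1, a gene of Wnt signalling, holds a window with the starts of 2 long noncoding RNAs, Gm39337 at chr9:50696980-50697279 and Gm51674 at chr9:50697621-50697920, both on the plus strand. Gstz1, which encodes an enzyme of tyrosine breakdown, holds the start of Gm6566 at chr12:87155436-87155735 on the minus strand. These windows, those of Dab1, Bdnf and Pax6 above and those of Arpp21 and the methylated Gnas window below were chosen after their values had been seen.
Gm39337 start in Dixdc1: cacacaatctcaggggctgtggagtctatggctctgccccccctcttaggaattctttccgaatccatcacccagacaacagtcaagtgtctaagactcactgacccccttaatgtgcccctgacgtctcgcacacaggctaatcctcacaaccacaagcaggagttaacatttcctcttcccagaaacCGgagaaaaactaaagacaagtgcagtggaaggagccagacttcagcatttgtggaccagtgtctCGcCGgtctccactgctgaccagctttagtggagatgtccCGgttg
Gm51674 start in Dixdc1: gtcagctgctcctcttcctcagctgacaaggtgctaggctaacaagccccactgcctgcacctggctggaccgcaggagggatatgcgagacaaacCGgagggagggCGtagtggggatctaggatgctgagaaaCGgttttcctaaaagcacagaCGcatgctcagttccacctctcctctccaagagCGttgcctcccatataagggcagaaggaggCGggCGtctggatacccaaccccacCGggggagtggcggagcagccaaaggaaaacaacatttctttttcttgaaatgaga
Gm6566 start in Gstz1: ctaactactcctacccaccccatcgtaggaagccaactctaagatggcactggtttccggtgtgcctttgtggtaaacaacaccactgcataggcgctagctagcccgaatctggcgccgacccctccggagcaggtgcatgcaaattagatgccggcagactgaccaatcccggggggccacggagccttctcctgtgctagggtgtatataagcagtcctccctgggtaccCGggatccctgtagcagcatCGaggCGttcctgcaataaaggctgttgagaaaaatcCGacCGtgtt

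Within the single Dixdc1 window the CpGs around the Gm39337 start averaged 54.2% (4 rows, 17% to 83.2%), and those around the Gm51674 start averaged 1.26% (8 rows, 0% to 5.26%). The window therefore held a partly methylated and an unmethylated stretch, and its mean of 23.8% described neither. The Gm6566 stretch averaged 95.2% (5 rows, 91.5% to 97.7%), and its window had the highest mean (96.8%) of the members that held an annotated start.

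Facts of the whole table came first. Each value was a percentage for 1 cytosine in 1 mouse, with no read count beside it, so the depth behind a value was unknown. The share of member rows without a value, a partial view of depth, ran from 2.444% in withdrawal mouse 4 to 45.02% in standard mouse 1 (all CpG rows: 2.573% and 34.66%), with 5.559% to 28.61% in the other 13 mice. Non-CpG cytosines, which read unconverted bases as well as true non-CpG methylation, had a median of 0.557% in the members and 0.4786% in CpG-dense windows near gene ends. At every one of 47249 places where a CpG row fell inside a RefSeq promoter sequence, the sequence read CG on the row's strand.

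CpG-dense windows inside genes were mostly unmethylated, but less uniformly so than those at gene ends. Averaged over all rows and mice, 694 of the 975 members (71.18%) lay under 20% methylation, 151 (15.49%) between 20% and 80%, and 130 (13.33%) over 80%, with a median of 4.301%. Among 7433 windows within 5 kb of a gene end that met the same minimum of 10 rows, 95.71% lay under 20% and 1.534% over 80%. Dense windows between genes (1070) had a larger methylated share, 25.23% over 80%. In windows inside genes with fewer than 10 rows (31919), the median was 79.23%, and 17.59% lay under 20%. Members were thus on the side of dense windows by level and far from the sparse windows inside genes. With only rows that had a value in all 15 mice, 441 members had at least 3 such rows, and 304 of them (68.93%) lay under 20%. Of all 15677 windows with that many complete rows, which include sparse windows and the X chromosome, 45.94% lay under 20%. Among the 4099 dense autosomal windows of these, members included, the share was 86.19%. These shares are descriptions, with no test, because windows of a genome are not replicates.

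**Figure D1:**
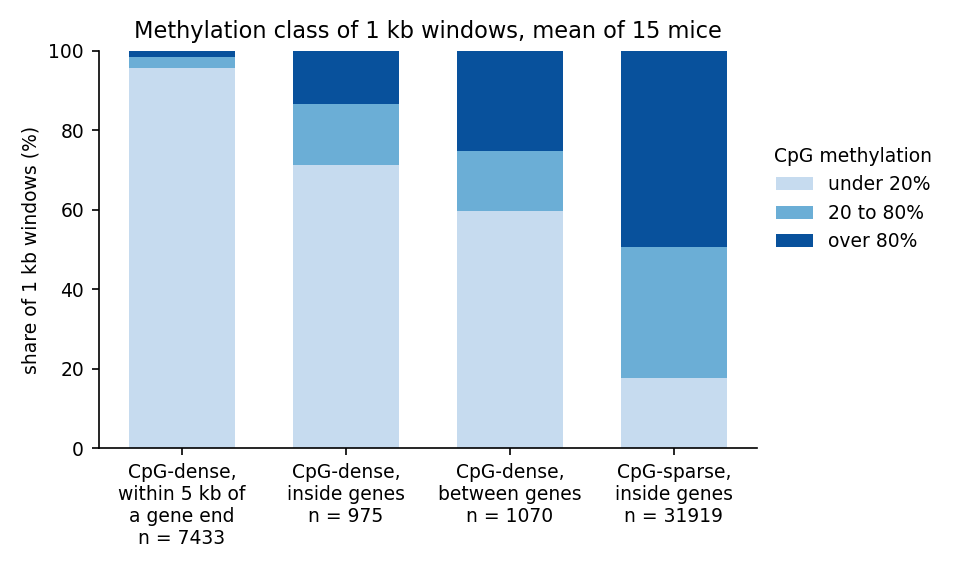
Share of 1 kb windows (vertical axis, %) with a mean CpG methylation under 20%, from 20% to 80% or over 80% (colours), for 4 kinds of autosomal window, averaged over 15 mice. The CpG-dense windows inside genes, 71.18% of them under 20%, lie between dense windows near gene ends (95.71%) and dense windows between genes (59.72%).

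The windows were short dense stretches in long genes. Counted per window, the host gene had a median length of 114.5 kb, and the windows lay a median of 23.13 kb from the nearest gene end. The rule's distance of more than 5 kb from gene ends itself favours long genes. A window held a median of 13 rows (at most 52) that spanned a median of 335 bases. One window each was found in 601 genes, 2 in 103 genes and 3 or more in 49 genes, and 127 windows lay next to another member. The level went with the number of rows: the median was 11.81% for 483 windows with 10 to 12 rows, 3.725% for 288 with 13 to 17 rows and 1.757% for 204 with more. At the rule's edge, the 229 windows with exactly 10 rows had a median of 13.54%, and the 279 windows with 9 rows that lay just outside it had 18.09%.

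Of the 5 windows with most rows, 4 were nearly free of methylation. Robo1, an axon guidance receptor, held the window with most rows (52), 635.5 kb into the gene, at 1.478%. It contains both an internal Robo1 start and the start of the noncoding gene Gm29908. Rreb1, a zinc finger transcription factor, followed with 48 rows at 0.8153%. Sertad2 (44 rows, 1.131%), a regulator of transcription, and Stard13 (42 rows, 0.8209%), a lipid-binding START domain protein, were as low. The other one was in Filip1l, with 41 rows at 54.69%, whose single rows ran from 21.03% to 90.68%.

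An annotated start inside the window went with a low level. A transcript start lay in 189 members, of which 170 held the start of a protein-coding transcript. Of these 170, 167 (98.24%) lay under 20% and none over 80%, with a median of 1.725%. Windows with the start of a noncoding gene only (19) had a median of 3.783%, with 16 under 20%. The 786 windows with no annotated start had a median of 7.535%. The table of starts covered the host gene of 759 members, and among those, the 572 without a start had a median of 7.905% and 64.69% under 20%. So even with no start annotated, most of these windows were unmethylated. Windows with a protein-coding start also held more rows (median 15) than these 572 (median 12). Among all members without an annotated start, the 145 with 18 or more rows had a median of 1.994%, and 89.66% lay under 20%. The part of row number in the difference by start was not tested.

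Promoters that lay inside members were rich in G, C and CpG, which the choice of windows by their number of CpG rows favours. The 239 promoter sequences (300 bases each) had a median GC content of 62.67% and a median ratio of observed to expected CpG of 0.746, against 52.67% and 0.384 over all 32851 promoters in the table. The 187 inside members that start protein-coding transcripts had 62.67% and 0.75, against 56.33% and 0.567 over 21263 protein-coding promoters. The enzyme's site CCGG, which reads the same on both strands, occurred in 95% of the 239 and in 52.8% of all promoters (protein-coding ones alone: 95.2% and 62.2%). RRBS measures only fragments cut at that site, and these promoters were also richer in G, C and CpG. The part of each in this share was not tested. The full CREB site TGACGTCA, also the same on both strands, occurred in 2.93% of the promoters inside members and in 1.79% of all promoters (protein-coding ones alone: 2.67% and 2.23%). A match is a run of letters and does not show binding.

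Of the 43 windows with the start of a noncoding gene, 19 held no protein-coding start. The 8 windows with most rows among those holding a noncoding start were in Robo1, Ulk4 (1.503%), Tlk2 (5.099%), Esrrg (1.267%), Gpam (1.501%), Arhgef2 (1.382%), Stard13 (a second window, 1.126%) and Atp2c1 (0.8408%). In 7 of these 8 the start of a protein-coding transcript and that of a noncoding RNA shared the window. In Stard13 it was the start of 1700028E10Rik alone. The internal Bdnf start lay in a window at 2.686% (16 rows), that of Dnmt1, the maintenance methyltransferase, at 1.835% (17 rows), and that of Cacna1c, an L-type calcium channel, at 1.13% (26 rows).

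A member in Arpp21 holds a microRNA. Its window lay at 6.021% and contains the hairpin of miR-128-2, a microRNA abundant in neurons. The mature strand is shown with its seed, bases 2 to 8, in capitals.
miR-128-3p: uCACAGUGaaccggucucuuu
The only measured CpG of the hairpin lay within this strand, at chr9:112118644-112118664 on the minus strand, and stood at 1.61%.

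Without an internal start, the level followed the place in the gene. In host genes with a known strand, the windows without a start had medians of 2.888% in the first 20% of gene length (124 windows), 4.869% in the next (127), 8.779% in the middle (135), 13.79% in the one after (97) and 21.75% in the last 20% (89). The share over 80% was 6.452% in the first bin and 28.09% in the last. The windows of 1 gene are not independent, and the number of rows also differed along genes, with a median of 13 rows in the first bin and 12 in the last among windows without a start.

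**Figure D2:**
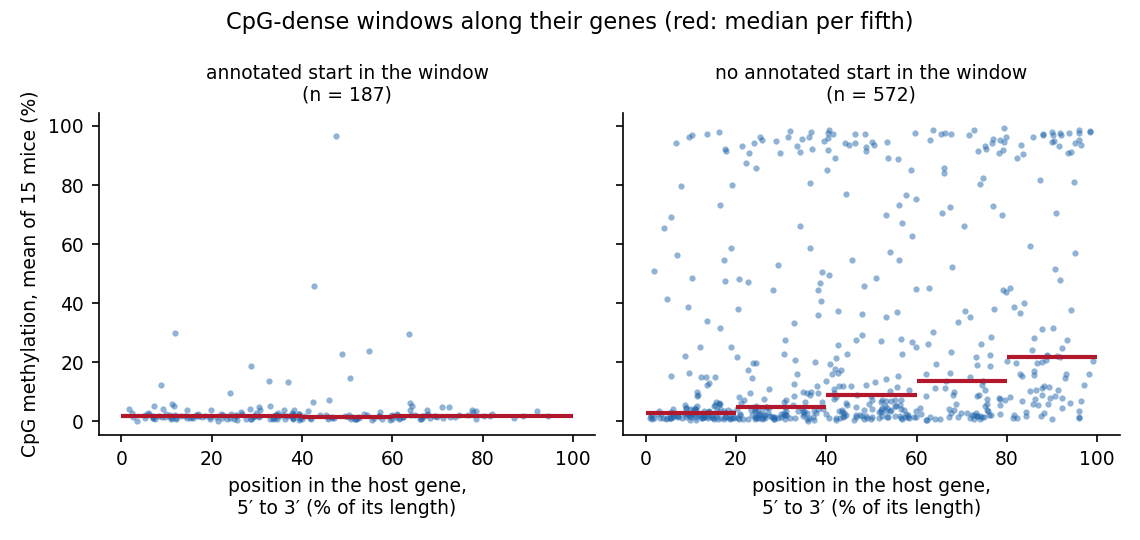
Mean CpG methylation over 15 mice (vertical axis, %) of each member whose host gene has an annotated strand, against its position in the gene from 5′ to 3′ end (horizontal axis, % of gene length). Left, windows with an annotated start; right, windows without. Red bars are medians in bins of 20% of gene length; on the right they run from 2.888% to 21.75%. The median over all windows with a start is 1.813%.

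The low level at internal starts extended to the next window on either side. Windows with a protein-coding start had a median of 1.725%, and their measured neighbours 1 kb upstream and 1 kb downstream stood at 2.479% (53 windows) and 2.251% (79 windows). At 2 kb upstream the median was 17.99% (23 windows) and at 3 kb 48.52% (21 windows). At 4 kb it was 25.36% (18 windows) and at 5 kb 11.91% (21 windows). Downstream it was 6.186% at 2 kb (25 windows), and at 3 to 5 kb fewer than 20 windows were measured. Around windows without a start the medians at 1 to 5 kb were 4.092% to 10.4% upstream and 6.719% to 34.05% downstream, with no test of the difference.

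**Figure D3:**
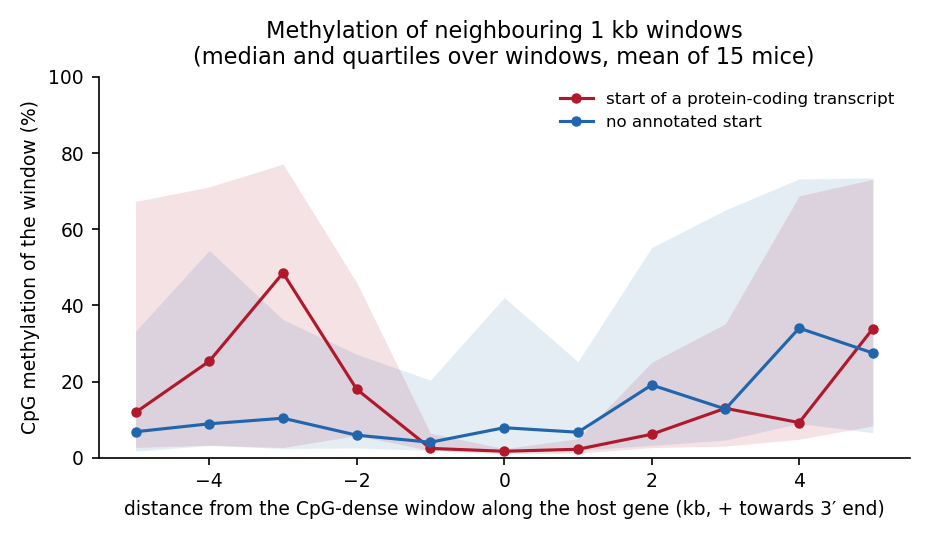
Median CpG methylation (line) and quartiles (shading) of the 1 kb windows measured around members, by distance along the host gene (horizontal axis, kb, positive towards the 3′ end). Around members with a protein-coding start the median goes from 1.725% at the window to its highest value, 48.52%, at 3 kb upstream, and is under 35% at every other distance. Around members without a start it stays under 35% throughout.

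Genes with several windows showed both states. Zfhx3, a large homeodomain transcription factor gene, had 7, the most of any gene. Its windows lay at 0.4671% and 0.5178% (neighbours, 423.7 and 424.7 kb into the gene), 29.4%, 59.27%, 94.65%, 98.43% and 97.81%, in order from 5′ to 3′. The level thus went from near 0 to near 100 within the gene, and the pair nearest the 3′ end was the most methylated. Gse1, which encodes a coiled-coil protein, had 6 windows, of which 5 lay between 0.7009% and 7.405% and 1 at 29.13%. Ebf3, a transcription factor of neuron differentiation, had 4 windows near its 5′ end at 1.744% to 3.051% and 1 at 67.17% in the middle of the gene. Lhx2, needed for hippocampal development, had 5 windows at 2.686% to 13.16%, of which the highest was at 23.66% over rows complete in all mice. Pax2 had 4 at 1.514% to 5.091% and 1 near the 3′ end at 28.27% (17.26% over complete rows).

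The gene lists described below were chosen with earlier results of these data known, and are given by counts and medians beside those of all members (71.18% under 20%, median 4.301%). Among 54 transcription factor genes, 25 held 58 members, of which 43 (74.14%) lay under 20% and 6 over 80%, with a median of 6.629%. The lowest was in Nfia, a factor of glial development, at 0.2433%, and the highest the Zfhx3 window at 98.43%. Lmx1b held 29 rows at 0.8935%. Only 7 of the 58 contained an annotated start, so most unmethylated windows in these genes held no start listed here. The table of starts does not cover every host gene, so some starts may have been missed.

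Ion channel genes held 19 members in 11 of 49 genes, with a median of 3.133% and 13 under 20%. The lowest was a window in Cacna1a, the P/Q-type calcium channel, at 0.7082%. Kcnn2, a calcium-activated potassium channel, had windows at 1.136%, 3.133% and 97.12%, the last being the highest of the list. Synaptic adhesion and scaffold genes held 28 members in 19 of 52 genes, with a median of 4.306% and 20 under 20%. They ranged from Shank3, a postsynaptic scaffold, at 0.5593% to Cdh13, a GPI-anchored cadherin, at 94.81%. Rims1, an active-zone organiser, held 31 rows at 7.356%, and Ptprd, a synaptic receptor phosphatase, 30 rows at 1.243% and a second window at 93.41%.

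Neurotransmitter receptor genes held few members, 6 in 4 of 31 genes, and all 6 lay under 20%. Grik2, a kainate receptor subunit, was lowest at 0.9733% and Grin1, the obligate NMDA receptor subunit, highest at 11.08%, with Gabra5 at 2.048%. Chromatin enzyme and corepressor genes held 7 members in 6 of 46 genes, 6 of them under 20%. Hdac4 was lowest (1.494%) and Mbd2, a reader of methylated DNA, highest (30.09%).

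Extracellular matrix genes held 3 members in 2 of 58 genes, and none lay under 20%. Fibronectin (Fn1) had windows at 89.05% and 97.18%, and Ltbp1 one at 47.36% (30.2% over complete rows).

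Of 23 imprinted genes, 4 held 5 members, and 3 of these lay between 20% and 80%, against 15.49% of all members. The Gnas window with rows at chr2:174328355-174328781 lies 0.606 to 1.03 kb after an internal Gnas start and averaged 37.28%, with single CpGs between 30.8% and 43.2%. A second Gnas window has rows at chr2:174330275-174330348, 0.269 to 0.342 kb after the next internal start, and averaged 1.329%. The Grb10 window, with rows at chr11:12026185-12026881, lies 1.09 to 1.79 kb after an internal start and averaged 48.53%. Trappc9 held a window over Peg13, a noncoding RNA expressed from the paternal copy in brain, at 31.53%, and the Zdbf2 window, which spans an internal Zdbf2 start and that of Gm11608, was at 3.723%. Gnas and Grb10 are textbook imprinted genes, both with islands methylated on the maternal copy. Alleles were not separated in these data.

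At the methylated Gnas window, which had a value in every mouse at all 10 rows, the standard mice stood at 29.21%, 27.73%, 36.98%, 49.74% and 31.42%. The enriched mice stood at 66.13%, 37.39%, 11.12%, 43.58% and 14.16%, and the withdrawal mice at 34.2%, 37.05%, 50.79%, 41.67% and 48.03%. The groups overlapped, and the enriched mice held both the highest and the lowest value. The means were 35.01% ± 8.95 (SD, n = 5), 34.48% ± 22.6 and 42.35% ± 7.05.

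At Grb10, averaged over each mouse's own rows, the standard mice stood at 53.26%, 33.85%, 52.59%, 13.99% and 57.5%. The enriched mice stood at 70.27%, 80%, 45%, 63.1% and 32.9%, and the withdrawal mice at 26.59%, 67.56%, 61.83%, 40.25% and 29.29%. All 3 groups overlapped. The highest value, 80% in enriched mouse 2, rests on 4 of the 16 rows, and the lowest, in standard mouse 4, on all 16. The window over Peg13 had the largest spread within groups of all 441 tested members (SD 23.07 points over complete rows), and Gnas ranked 14th of 441 (14.64 points). Over each mouse's own rows the Peg13 window stood at 21.92% to 49.64% in standard, 15.28% to 73.19% in enriched and 7.5% to 39.16% in withdrawal mice. The lowest of these values rests on 7 rows and the highest on 9. Single rows of this window averaged 14.7% to 48.3%, so missing rows can shift a mouse's mean. Their part in the spread was not tested. In the mice farthest apart, the rows at Gnas ran from 39.1% to 80.6% in enriched mouse 1 and from 0% to 32.5% in enriched mouse 3, which do not overlap. At Grb10 they overlapped, from 20% to 100% in enriched mouse 2 and from 0% to 53.3% in standard mouse 4. Reads behind each value are unknown, and neighbouring CpGs can be read from the same few molecules.

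**Figure D4:**
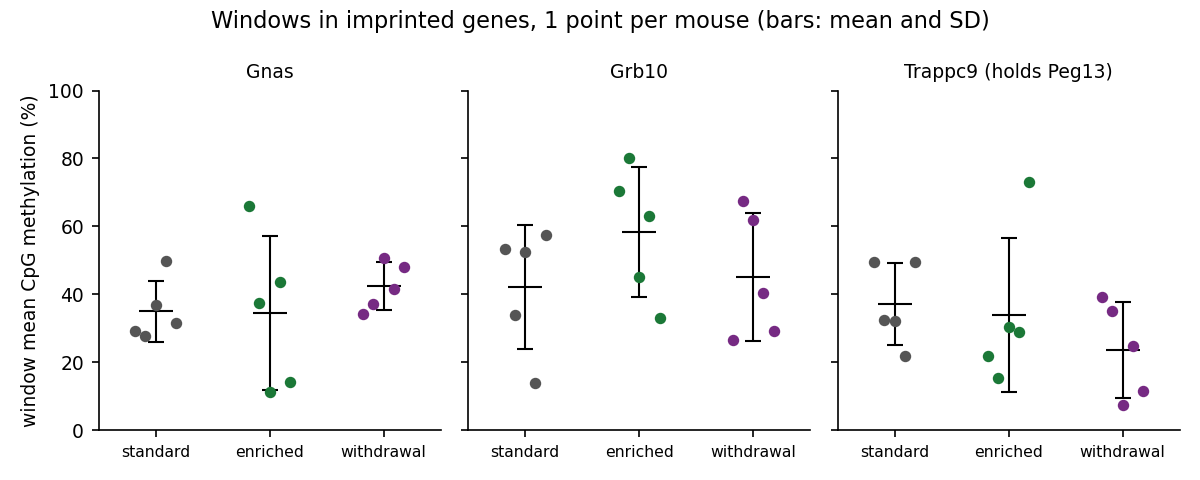
Window mean CpG methylation (vertical axis, %) in each of 15 mice (points) at the windows in Gnas, Grb10 and Trappc9, by housing group, with group mean and SD (bars). The points of the 3 groups overlap in each window, from 11.12% to 66.13% at Gnas.

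The SD within groups, in points, was larger at windows of intermediate level than at low or high ones, also outside imprinted genes. Percentages near either limit of the scale have less room to vary, and the part of read sampling was not tested. Among the 441 tested members, the median SD within groups was 2.68 points for windows under 20%, 9.696 points for the 81 between 20% and 80% and 3.255 points for those over 80%, against 2.711, 10.93 and 4.49 points over all tested windows. The means and SDs of the next windows are over complete rows, and the ranges of their rows are over all rows. Clvs1, a lipid-binding protein of neurons, had an SD of 3.167 points at a mean of 40.21%. Over all rows its mean was 44.09% and its rows ran from 6.246% to 94.3%, so that mean averaged low and high CpGs. Skap1 (55.96%, SD 6.446) had rows over a similar range, 2.438% to 94.84%. Those of Dock2 (42.91%, SD 5.83) ran from 25.62% to 96.41%, with none under 20%. Ntrk2, the receptor of BDNF, held a window 5.529 kb into the gene at 57.33% (SD 7.133) with rows from 23.87% to 80.01%. After Peg13, the largest spreads were in Cfap77 (21.7 points), Intu (19.82), Hmga2 (18.37) and Nrip1 (17.39).

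Windows that joined rows under 20% and rows over 80% made up 45 of the members (4.615%), against 0.9956% of dense windows near gene ends and 4.86% of those between genes. Over 1817 CpGs with a row on each strand the median difference between the 2 strands was 1.899 points, and 27 (1.486%) differed by more than 20 points. Most members lay under 20%, where strands can differ little, and this difference was not split by level. In the Filip1l window a CpG stood at 90.7% on the plus strand and at 53.9% on the minus strand.

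The comparison of housing groups asked whether long enrichment, or enrichment followed by standard housing, went with another level at these windows. The mean over the 441 tested members of standard mice was 22.94% ± 0.925 (SD, n = 5), that of enriched mice 23.08% ± 0.592 and that of withdrawal mice 23.47% ± 0.588. Standard mice ran from 22.21% to 23.99%, enriched from 22.27% to 23.88% and withdrawal from 22.85% to 24.21%. The groups overlapped, and the differences of 0.135, 0.527 and 0.392 points (enriched over standard, withdrawal over standard, withdrawal over enriched) were smaller than the spread between standard mice. Over all 15677 tested windows the same differences were 0.131, 0.491 and 0.36 points. Among the 81 members between 20% and 80% the means were 42.1%, 42.17% and 44.08%, with SDs of 2.66, 1.97 and 1.75 points. Values over all rows of the 975 members gave -0.346, 0.00399 and 0.35 points for the 3 differences.

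No member passed the test in any comparison. By limma, with Benjamini-Hochberg adjustment over 15677 windows, 0 of 441 members were called at an adjusted p under 0.05 in each of the 3 comparisons, against a background of 0% of all windows. The smallest adjusted p among members was 0.653 when enriched mice were set against standard mice, 0.995 for withdrawal against standard mice, and 0.999 between withdrawal and enriched mice. At an unadjusted p under 0.05 there were 17 members (3.85%) in the first comparison, where the background was 5.71% of all windows (9 higher, background 3.05%, and 8 lower, background 2.66%), 20 (4.54%, background 4.8%) in the second and 16 (3.63%, background 4.39%) in the third. In the second, 15 members were higher (background 2.9%) and 5 lower (background 1.9%) in withdrawal mice. In the third, 10 were higher (background 2.67%) and 6 lower (background 1.72%). A test of any difference among the 3 groups gave 15 members (3.4%, background 5.08%) and a smallest adjusted p of 0.913. The median absolute difference was 1.54, 1.3 and 1.45 points in members and 1.87, 1.72 and 1.71 points over all tested windows.

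Enriched and standard mice did not overlap in 4 members (0.907%, background 0.689%), withdrawal and standard mice in 3 (0.68%, background 0.804%) and withdrawal and enriched mice in 2 (0.454%, background 0.651%). These shares were near the background. With each mouse averaged over its own rows, 3 of these 9 windows (Phldb2, Sfi1 and Nphp4) still did not overlap. By direction, the first comparison had 1 higher (background 0.376%) and 3 lower (background 0.313%), the second 3 higher (background 0.51%) and 0 lower (background 0.293%), and the third 0 higher (background 0.408%) and 2 lower (background 0.242%). The 4 were in Celf5, Phldb2, Dido1 and Sfi1, the 3 in Arhgef28, Nphp4 and Mrpl48, and the 2 in Kcnb2 and Nxph1. Sfi1, Arhgef28, Nphp4 and Mrpl48 are named for this count, after their values were seen. Arhgef28, a protein that binds neurofilament RNA, had a standard mean of 15.3% ± 4.09 (SD, n = 5), an enriched mean of 27.05% ± 13.4 and a withdrawal mean of 28.91% ± 7.1 over 4 complete rows of 10. Over each mouse's own rows the direction was the opposite, 34.16% in standard and 29.93% in withdrawal mice. The means of Nphp4, a protein of the ciliary transition zone, were 11.31% ± 3.56, 17.2% ± 6.06 and 19.27% ± 4.08. The Sfi1 window, which overlaps the pseudogene Gm11400 so that reads could be shared with a copy, was at 86.36% ± 1.75, 83.43% ± 0.983 and 85.22% ± 2.56. Mrpl48, which encodes a mitochondrial ribosomal protein, was at 0.117% ± 0.262, 0.9389% ± 1.04 and 1.491% ± 0.891.

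The members with the smallest p for enriched against standard were in Celf5, Phldb2, Dido1, Sh3pxd2a and Rnf125, and 4 of these 5 had the lower mean in enriched mice. At Celf5 (rows at chr10:81473002-81473628, at an internal start) the standard mice stood at 8.083%, 3.492%, 4.954%, 1.481% and 5.807%. The enriched mice stood at 0%, 1.281%, 1.345%, 0% and 0%, and the withdrawal mice at 1.032%, 2.651%, 1.076%, 1% and 0%. Every enriched mouse lay below every standard mouse, and the lowest standard mouse lay within the withdrawal range. The difference was -0.85 ± 0.2 (SE) on the log2 ratio scale between enriched and standard mice (limma, adjusted p = 0.653) and -0.69 ± 0.2 between withdrawal and standard mice (adjusted p = 0.995). These values rest on 5 complete rows of 17. With each mouse averaged over its own rows the differences were -0.58 and -0.16, and the enriched mice (up to 2%) overlapped the standard mice (from 0.9383%).

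Phldb2, a microtubule-anchoring protein, holds a window with an internal start. It was at 0% in all 5 standard mice, at 3.681%, 0.8929%, 2.43%, 1.543% and 2.134% in enriched and at 0.5263%, 0%, 3.346%, 1.923% and 1.961% in withdrawal mice (0.53 ± 0.16 between enriched and standard mice, limma, adjusted p = 0.788). All of these levels are low, and the difference was 2.14 points. Dido1, a PHD-finger chromatin protein, has an internal start in its window. It stood at 29.88%, 8.259%, 3.774%, 8.731% and 5.326% in standard, 3%, 0%, 2.815%, 0.2874% and 3.716% in enriched and 1.782% to 9.559% in withdrawal mice. Standard mouse 1, which lacked the largest share of rows, was far above the others there. Without it the difference was -0.8 in place of -1.21 on the log2 ratio scale. The part of its missing rows in this was not tested. With each mouse's own rows the difference was -0.67, and the groups overlapped.

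Sh3pxd2a, a podosome scaffold, stood at 0.7246% to 6.842% in standard and 0% to 0.9901% in enriched mice, and Rnf125, a ubiquitin ligase, at 0% to 12.5% and 0% to 3.947%. Both pairs of groups overlapped, and with each mouse's own rows the differences were -0.32 in place of -0.69 and -0.13 in place of -0.83. Rnf125 also had a small p for withdrawal against standard (-0.88 ± 0.32, adjusted p = 0.995), but with each mouse's own rows that difference was 0.09.

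For withdrawal against standard the named members were Celf5, Apbb2, Rnf125 and Prkd2. Prkd2, a diacylglycerol-activated kinase, stood at 8.849%, 7.223%, 14.25%, 5.577% and 8.896% in standard, 15.44%, 8.028%, 14.46%, 23.35% and 18.09% in enriched and 18.49%, 19.13%, 17.67%, 18.35% and 12.42% in withdrawal mice (withdrawal over standard 0.82 ± 0.3, limma, adjusted p = 0.995). Of the 5 withdrawal mice 4 lay above all standard mice. Apbb2, an adaptor that binds the amyloid precursor protein, was at 0% in 4 standard mice and 3.922% in the other one. It reached 37.45% in withdrawal mouse 2, with the other withdrawal mice at 0% to 10% (1.43 ± 0.49, adjusted p = 0.995), and with each mouse's own rows the difference was -0.05.

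For withdrawal against enriched the named members were Kcnb2, Tiam1, Ptgis and Nxph1. Kcnb2, a delayed-rectifier potassium channel, stood at 100% in all 5 enriched mice, 94.38% to 100% in standard mice and 96.32%, 98.2%, 86.43%, 97.43% and 96.03% in withdrawal mice (-0.99 ± 0.31, adjusted p = 0.999). That rests on 4 complete rows of 14. Over each mouse's own rows, enriched mice ran from 89.14% to 100% and withdrawal mice from 91.13% to 98.95%, and the difference was -0.33. Tiam1, a Rac exchange factor of dendritic spines, was at 0% to 0.3322% in enriched, 0% to 3.666% in standard and 0%, 2.9%, 2.878%, 4.511% and 3.239% in withdrawal mice (0.6 ± 0.2, adjusted p = 0.999). Nxph1, a ligand of neurexins, was at 4% to 7.053% in enriched and 0% to 2.813% in withdrawal mice (-0.7 ± 0.25, adjusted p = 0.999), with standard mice from 0% to 5.809%. Ptgis, prostacyclin synthase, was at 0% in all enriched mice and at 0% to 4% in withdrawal mice (0.56 ± 0.19, adjusted p = 0.999). Over own rows the difference was 0.28 at Tiam1, 0.26 at Ptgis and -0.72 at Nxph1. Apart from Kcnb2, the named windows of these comparisons had means under 20% in every group over complete rows, but Prkd2 stood at 28% over all its rows.

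**Figure D5:**
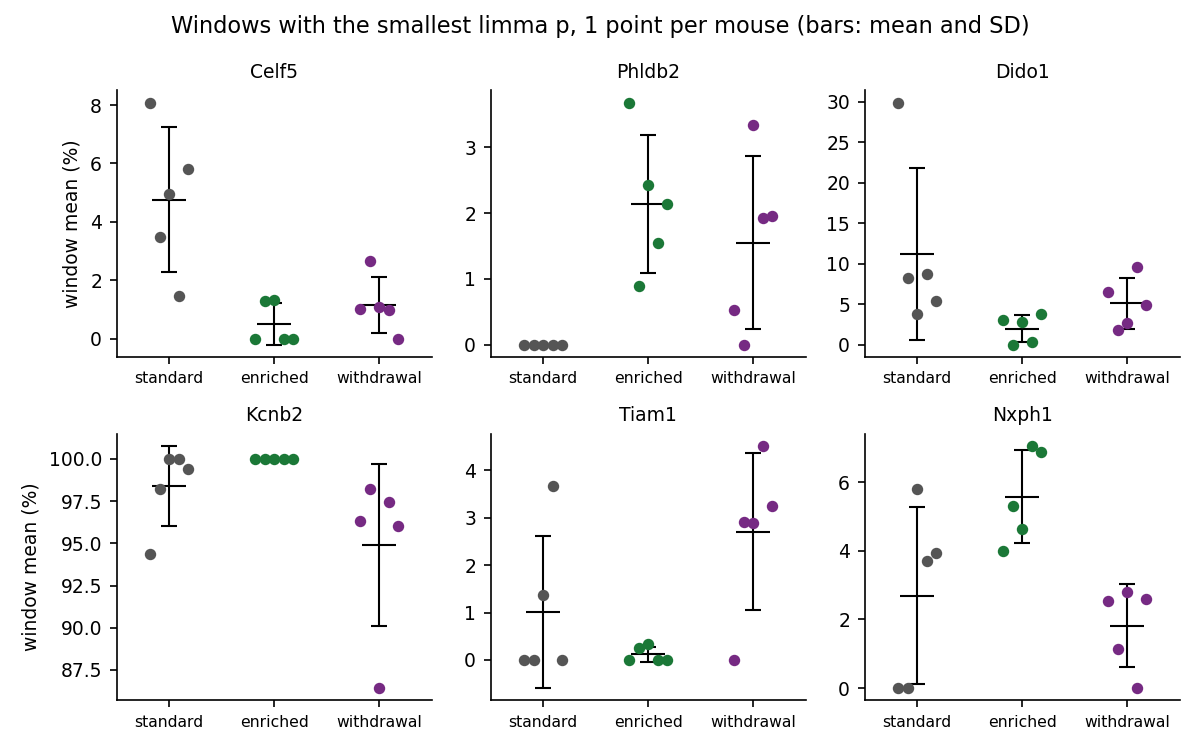
Window mean CpG methylation over complete rows (vertical axis, %, a separate scale for each panel) in each mouse (points) for 6 of the windows with the smallest limma p, by housing group, with group mean and SD (bars). In Celf5 the enriched mice lie at 0% to 1.345% and the standard mice at 1.481% to 8.083%; none of the 6 passed the test after adjustment.

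None of these gene lists held a called member in any comparison, beside the 0% of all windows. At an unadjusted p under 0.05, transcription factor genes had 1 of 26 tested members between enriched and standard mice (background 5.71% of all windows) and 1 between withdrawal and standard mice (background 4.8%). The synaptic list had 1 of 15 for withdrawal against standard and the chromatin list 1 of 2 for enriched against standard. The imprinted, ion channel, receptor and matrix lists had none of 2, 8, 2 and 3.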

How the data were processed

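RRBS percent methylation was analysed in 15 mice, 5 in each of 3 housing groups taken from the labels. The authors deposited 1 table of percent values per cytosine and strand, with no read counts. Per the submitters' processing notes, Trim Galore 0.4.0, cutadapt 1.8.1, Bismark 0.16.1, methylKit 1.5.2 and the build mm10 were named. Any coverage minimum is not given in the sources used here. The table holds 455836 rows in a first run through the chromosomes, taken as CpG, and 2462278 in a second run, taken as non-CpG. Each housing group has values from 3 or more of its mice at every CpG row, and missing rows lower the precision of a mouse's window means.

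Windows were classed against RefSeq genes of GRCm38.p6 (21900 protein-coding), and starts came from RefSeq promoter sequences, which are not complete. Exons and introns were not used here. The level of a window is the mean of group means over its rows. For tests, windows with at least 3 rows complete in all mice were averaged per mouse and transformed as log2((percent + 5)/(100 - percent + 5)). limma 3.58.1 in R 4.3.3 fitted 3 group means with a trended variance (two-sided, Benjamini-Hochberg over 15677 windows), after a test on simulated data. Differences with an SE are on that log2 ratio scale. Members and gene lists were chosen with earlier results of these data known. Windows were named by rules: the 5 smallest p per comparison, most rows, intermediate level with small spread, noncoding starts, the extremes of each list, extreme spread, and genes with most windows. A window and a gene list chosen this way are not reported here. The labels do not tell a library batch, and nothing says how litters or cages were divided, so p-values measure the spread between these mice. Python 3.11.15 and pandas 2.3.3 made the tables.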

Additional observations from a re-analysis of the deposited data

Results flagged for a closer look

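Some mice stood apart from the other 4 of their group, by a gap larger than Dixon's 95% limit for the group's range, in 12 of 72 groups of values looked at. The limit flags about 1 in 20 groups of normal values that were not selected. Many of these windows were chosen for their values, and a group with all mice but 1 at 0% is always flagged. The 12 of 72 is therefore not a measure of excess. Standard mouse 1, which had no value at 45.02% of member rows, was above its group in the mean over tested members with an annotated start (5.68%, next 4.607%) and at Dido1 (29.88%, next 8.731%). Values near 0 made up several others. At Rnf125 enriched mouse 1 had 3.947% and withdrawal mouse 4 had 2.564%, with every other mouse of their groups at 0%. At Apbb2 standard mouse 3 had 3.922% and at Mrpl48 standard mouse 2 had 0.5848%, with the rest of the group at 0%. Withdrawal mouse 5 had 4.762% at Sh3pxd2a (next 1.176%). Larger steps were 37.45% at Apbb2 in withdrawal mouse 2 (next 10%), 12.42% at Prkd2 in withdrawal mouse 5 (next 17.67%), 86.43% at Kcnb2 in withdrawal mouse 3 (next 96.03%) and 80.79% at the Sfi1 window named above in withdrawal mouse 2 (next 85.28%). At the Peg13 window in Trappc9, enriched mouse 5 had 73.19%, with the next at 30.33%. What sets these mice apart was not tested.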

How the results depend on the processing

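No member was called in any comparison under 23 other fits, 15 of them leaving out 1 mouse each; the smallest adjusted p was 0.18, at Celf5 for enriched against standard without standard replicate 4. The replicate numbers in the labels gave little sign of pairing. With each group's mean subtracted per window, the log2 ratios of same-numbered mice correlated at -0.0203 to 0.0541 over all tested windows. Values for mice with different numbers are not given beside these. The fit with a replicate block called 0 members. The members numbered 975 and became 338 with at least 15 rows. The share under 20% was 85.96% with at least 15 rows, 75.47% with 10 CpG positions after joining strands and 74.47% at more than 2 kb from gene ends. Leaving out 1 mouse gave level differences of -0.0653 to 0.397 points for enriched over standard, 0.342 to 0.789 for withdrawal over standard and 0.192 to 0.593 for withdrawal over enriched, and 0 called members in each fit. With each mouse averaged over its own rows, 2 named differences between withdrawal and standard mice changed sign, Apbb2 to -0.05 and Rnf125 to 0.09. The cause was not tested. The other 278 of 280 alternative values of named differences kept their direction, but own rows shrank several by over 1.5 times: Dido1 to -0.67, Sh3pxd2a to -0.32, Rnf125 (enriched) to -0.13, Celf5 (withdrawal) to -0.16, Kcnb2 to -0.33, Tiam1 to 0.28 and Ptgis to 0.26. Of 55 levels of named windows, 8 moved by more than the spread between mice. With rows complete in the 14 mice other than standard mouse 1, an alternative chosen after seeing the data, 536 members were tested and 0 called. That fit also shrank several named differences by over 1.5 times: Apbb2 to 0.19, Dido1 to -0.51, Tiam1 to 0.37 and Ptgis to 0.14. Those of Phldb2, Prkd2, Kcnb2 and Nxph1 kept their values. Depth is unknown, so small differences at low windows may not have been detectable.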
